A study of Homo sapiens with 10 samples.

Results

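The response of 42 chaperone genes to 2 inhibitors of the lipid phosphatase SHIP2 was followed in an esophageal cancer cell line. The 42 genes were chosen by symbol from textbook families, with earlier results of these data known. All 42 were found among the 58302 genes of the deposited table. They comprise the heat shock factors HSF1 and HSF2, the HSP70, HSP110, HSP90 and small heat shock protein families, J-domain proteins, BAG3, HSP90 co-chaperones, the 8 subunits of the cytosolic chaperonin CCT, and 4 mitochondrial chaperones. Although the set is built around the cytosol, HSPA9, HSPD1, HSPE1 and TRAP1 act in mitochondria, HSPA13 is associated with the endoplasmic reticulum (ER), and HSPB11 is a component of intraflagellar transport.

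RNA was sequenced from KYSE-410, an established line of human esophageal squamous cell carcinoma, 48 h after treatment. In the first arm, 3 libraries came from cells given 2 µM K149 and 3 from cells given the solvent DMSO at 0.1%. In the second arm, 2 libraries came from cells given 20 µM AS1949490 and 2 from cells given 0.1% DMSO. SHIP2, encoded by INPPL1, removes a phosphate from a lipid messenger of phosphoinositide 3-kinase. The labels name no engineered genetic change in any group. The work rests on 1 cell line, and the dose, the library set and the control libraries all differ between the arms. Whether the libraries of a group stem from different cultures is not in the labels, so the p-values reflect the spread among these libraries alone, possibly technical.

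Chaperones bind proteins that are not yet folded or have lost their fold. HSP70 proteins cycle on and off short hydrophobic stretches, with J-domain proteins delivering the client and nucleotide exchange factors such as HSP110 and BAG proteins releasing it. HSP90 acts later on kinases and hormone receptors together with a set of co-chaperones, and CCT, a double ring of 8 different subunits, encloses actin, tubulin and other clients. On heat or proteotoxic stress HSF1 binds heat shock elements, inverted repeats of GAA, and induces HSPA1A, HSPA1B and other genes of the family. Carcinoma cells often carry high levels of HSP90 and HSP70 proteins without added stress.

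The heat shock element that HSF1 reads was searched in the promoters of the 42 genes, because the set includes classical targets of that factor. RefSeq promoter windows on GRCh38.p14, 250 bases before to 50 bases after a start site, were matched for 36 of the 42 symbols. HSF1, HSPA14, HSPB11, CRYAB, FKBP4 and CCT6A had no entry. The 13-letter element, GAA, any 2 bases, TTC, any 2 bases, GAA, or its reverse complement beginning and ending with TTC, was present in a window of 7 of the 36 genes (19.4%). Of all 27305 gene symbols in the same table, 0.608% had such a window. The windows of HSPA1A and HSPA1B held only a shorter form of 8 letters, GAA and TTC in either order with any 2 bases between, which 13.5% of all 35116 windows hold. Below are the whole HSPA1A window and, for the 7 genes, the matches with up to 20 bases on either side, 5′ to 3′ on the strand of the gene. Capitals mark the letters that match the element, in its 8-letter form for HSPA1A and its 13-letter form for the others.

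HSPA1A, chr6:31815293-31815592, plus strand: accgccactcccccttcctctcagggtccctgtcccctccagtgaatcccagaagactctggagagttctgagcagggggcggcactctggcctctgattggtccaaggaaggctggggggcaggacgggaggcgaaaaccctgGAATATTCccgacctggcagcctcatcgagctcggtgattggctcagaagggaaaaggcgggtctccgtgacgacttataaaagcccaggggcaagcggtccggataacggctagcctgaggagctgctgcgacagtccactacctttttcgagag
HSPA8, chr11:123062159-123062386, minus strand: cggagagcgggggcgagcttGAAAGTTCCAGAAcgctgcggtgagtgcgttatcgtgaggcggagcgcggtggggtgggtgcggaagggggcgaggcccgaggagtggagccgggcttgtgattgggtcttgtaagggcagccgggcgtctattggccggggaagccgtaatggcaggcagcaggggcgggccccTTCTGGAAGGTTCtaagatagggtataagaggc
HSP90AA1, chr14:102087100-102087152, minus strand: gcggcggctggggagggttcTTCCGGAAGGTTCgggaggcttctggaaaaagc
HSP90AB1, chr6:44247758-44247863, plus strand: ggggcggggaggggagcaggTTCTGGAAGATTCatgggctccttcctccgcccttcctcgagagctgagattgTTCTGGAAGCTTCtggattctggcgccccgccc
CHORDC1, chr11:90223067-90223129, minus strand: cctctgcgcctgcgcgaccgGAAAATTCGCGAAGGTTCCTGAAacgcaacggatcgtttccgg
DNAJA1, chr9:33025256-33025308, plus strand: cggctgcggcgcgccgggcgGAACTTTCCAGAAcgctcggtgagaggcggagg
DNAJB6, chr7:157336853-157336905, plus strand: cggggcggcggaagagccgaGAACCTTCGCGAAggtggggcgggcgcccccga
HSPD1, chr2:197500048-197500090, minus strand: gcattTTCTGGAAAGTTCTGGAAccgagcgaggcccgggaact

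HSPA8, HSP90AB1 and HSPD1 each held 2 matches, the HSPD1 pair overlapping, and CHORDC1 held 3 that overlap in 1 run. HSP90AA1, HSP90AB1 and HSPD1 have more than 1 annotated start, and the match lay in 1 window of each. A match describes these letters and is no evidence that a factor was bound.

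Values were CPM, which scale the reads of each library to the same total, so a lower value is a smaller share of the library, and less of 1 mRNA cannot be told apart from more of others. Library depth, inferred from the steps of the values, was 18.4 to 26.4 M reads, with 26.4 and 26.2 M for AS1949490 and 18.4 and 20.8 M for DMSO of that arm. All 8 squamous keratinocyte markers reached 1 CPM, as did 3 of 5 fibroblast, 1 of 5 columnar and 1 of 4 endothelial markers. The fibroblast markers COL1A2 and COL3A1 and all 5 immune markers stayed under 1 CPM. The summed squamous markers were 783 to 796 CPM in the K149 arm's DMSO libraries, 218 to 234 CPM with K149, 522 to 562 CPM in the other DMSO libraries and 530 to 546 CPM with AS1949490. Their part in the chaperone results was not tested. INPPL1 was higher in the libraries of both inhibitors (166 to 185 CPM with K149, 192 and 205 CPM with AS1949490) than in DMSO (102 to 141 CPM). K149 replicate 1 stood apart in the nuclear RNA MALAT1 (704 CPM, against 153 and 148 CPM in the other K149 libraries), and without that library K149 still gave 7 chaperone genes higher and 27 lower.

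With K149 the inducible HSP70 genes, HSPB8 and the J-domain gene DNAJB4 rose, while the 4 other cytosolic HSP70 genes of the set, both HSP90 genes, 5 of 6 HSP90 co-chaperones, all 8 CCT genes and the 4 mitochondrial chaperones fell. Of the 35 genes called with K149, 24 were called in the same direction with AS1949490, HSPA9 in the opposite one, and 10 were not called (HSPA1L, HSPA2, HSPA8, HSPA4, HSPH1, HSP90AA1, PTGES3, DNAJA1, DNAJB6 and HSPD1). Of the 42 genes, 41 were tested, each with a mean of at least 1 CPM in every group, and CRYAB, which encodes the lens and muscle protein αB-crystallin, was not (0 to 0.45 CPM). With limma at a Benjamini-Hochberg adjusted p under 0.05, 7 of the 41 rose with K149 and 28 fell, where 35.8% of all 17837 genes tested were called higher and 30.6% lower. The median log2 fold on CPM + 1 was -0.43 over the 41 genes and 0.04 over all genes tested.

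With AS1949490, 8 of the 41 genes rose and 20 fell, against 32.1% of all genes tested called higher and 19.5% lower. The median log2 fold was -0.11, and 0.08 over all genes. After rescaling by TMM (trimmed mean of M-values) the calls with AS1949490 over all genes moved from 5727 higher and 3478 lower to 4640 and 4562, and those of the chaperone genes to 6 and 23. With both inhibitors 6 genes rose (HSPA1A, HSPA1B, HSPA13, HSPB8, DNAJB1 and DNAJB4), against 20.3% of all genes, and 18 fell with both, against 13.3%. Among the 6, HSPA1A, HSPA1B and DNAJB1 lost their AS1949490 call in some alternatives. Among the 18, CHORDC1, CCT2, CCT3, CCT6A, CCT8 and TRAP1 did so too, and HSPB11 lost its K149 call in some. HSPA9 alone was called with both in opposite directions, as were 5.01% of all genes. By libraries alone, 7 of the 42 genes had every K149 library above every control and 28 every one below, where 37.7% and 32.6% of all genes tested did. With AS1949490 these counts were 13 above and 24 below, where 44.5% and 30.5% of all genes tested did. The 13 include CRYAB, which was not among the genes tested (0.3 and 0.45 CPM against 0.1 CPM in both controls). The 42 genes together made up 1.74 to 1.79% of the K149 arm's DMSO libraries and 1.32 to 1.41% of the K149 libraries. In the other arm they made up 2.01 and 1.90% with DMSO and 1.72 and 1.81% with AS1949490.

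**Figure D1:**
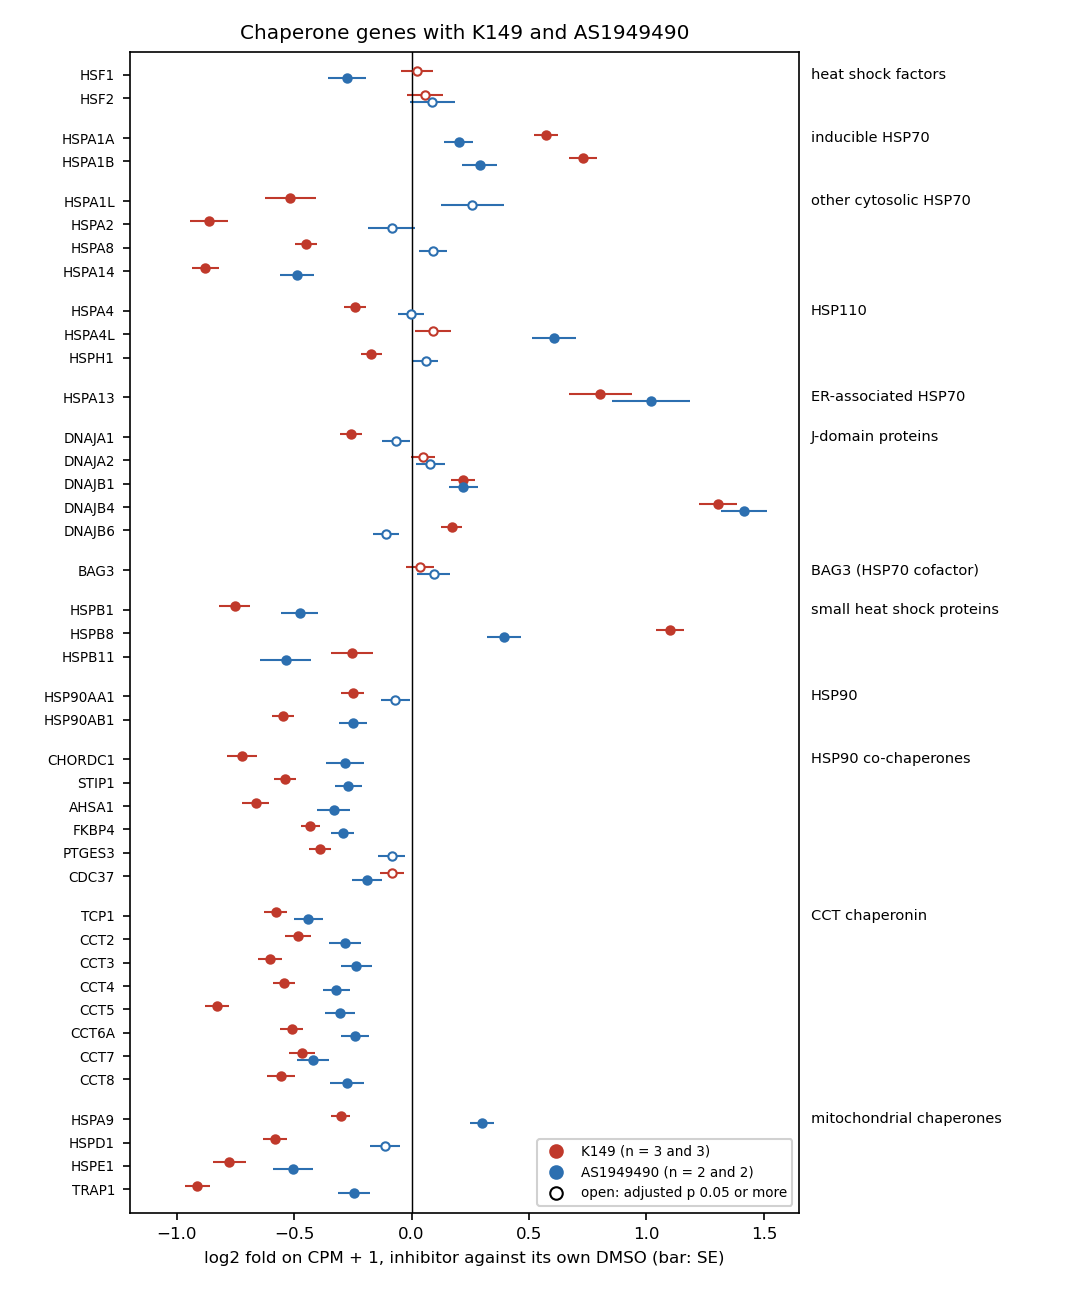
Log2 fold on CPM + 1 of each tested chaperone gene with K149 (red) and AS1949490 (blue) against DMSO of the same arm, grouped by role, with standard errors as bars and open symbols where limma's adjusted p was 0.05 or more. All 8 CCT subunits lie left of 0 with both inhibitors, between -0.83 and -0.23, and DNAJB4 lies farthest right at 1.30 and 1.42.

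HSF1, the main transcription factor of the heat shock response, did not pass the test with K149 and was lower with AS1949490. Its level was 151, 150 and 151 CPM with DMSO and 139, 173 and 148 CPM with K149, so the K149 libraries lay on both sides of the controls (log2 fold 0.02 ± 0.07, SE, limma adjusted p = 0.773). In the other arm it fell from 227 and 216 CPM to 188 and 178 CPM, without overlap (log2 fold -0.28 ± 0.08, limma adjusted p = 0.012). That call was lost without DMSO replicate 1 of its arm (adjusted p = 0.0549) and without AS1949490 replicate 2 (0.0873). HSF2, a related factor with roles in development, stayed between 15.2 and 18.6 CPM in all 10 libraries and passed neither test.

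Stress-inducible HSP70 was called higher with both compounds, but not under every alternative with AS1949490. HSPA1A (ENSG00000204389, chr6:31815464-31817946, plus strand) measured 328, 315 and 317 CPM with DMSO and 456, 508 and 464 CPM with K149. Every K149 library was above every control (log2 fold 0.57 ± 0.05, SE, limma adjusted p = 3.29e-07). With AS1949490, HSPA1A was 287 and 278 CPM against 255 and 237 CPM with DMSO. The groups did not overlap (0.20 ± 0.06, adjusted p = 0.016). That call was lost on rescaling by TMM (0.11, adjusted p = 0.149) or upper quartile (0.14, adjusted p = 0.0827). It was also lost with only these 2 groups in the fit (adjusted p = 0.0573) and without DMSO replicate 2 (0.15) or AS1949490 replicate 1 (0.18). On the 8 libraries with recovered reads, where DMSO of this arm holds 1 library, the HSPA1A fold was 0.17 with edgeR and 0.15 with DESeq2. HSPA1B (ENSG00000204388, chr6:31827735-31830255, plus strand), its near-identical neighbour, measured 248, 243 and 244 CPM with DMSO and 377, 447 and 400 CPM with K149. All K149 libraries were above the controls (0.73 ± 0.06, adjusted p = 1.21e-07). In the AS1949490 arm HSPA1B went from 148 and 159 CPM to 193 and 183 CPM (0.29 ± 0.07, adjusted p = 0.00463), again without overlap. On the 8 libraries with recovered reads, edgeR (0.16, adjusted p = 0.154) and DESeq2 (0.14, adjusted p = 0.263) did not call that rise.

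The division of reads between these copies is uncertain. Of the 50-base words in the HSPA1A transcript, 72.6% also occur in HSPA1B. Besides, 36.5% of the HSPA1B exon bases lie in another annotated gene, AL671762.1, which has no row in the deposited table. Their sum does not depend on that division. Whether shared reads were dropped or counted for both genes is not known, and the level of the sum depends on it. The sum was 576, 558 and 561 CPM with DMSO and 833, 955 and 864 CPM with K149, and 403 and 396 CPM with DMSO and 480 and 461 CPM with AS1949490. In each arm all treated libraries exceeded all controls. HSPA1L, the third gene of the cluster, whose product is abundant in testis, was low. It measured 4.45, 5.05 and 4.65 CPM with DMSO and 2.7, 3.15 and 3.15 CPM with K149, a fall (log2 fold -0.52 ± 0.11, limma adjusted p = 0.000827; -0.28 with a pseudocount of 5). With AS1949490 both libraries (1.9 and 2.45 CPM) were above both controls (1.45 and 1.85 CPM), without passing the test (0.26 ± 0.13, adjusted p = 0.118).

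HSPA8, the constitutive HSP70 that carries most everyday folding, moved opposite to the inducible genes with K149. It measured 1684, 1715 and 1784 CPM with DMSO and 1272, 1291 and 1231 CPM with K149. No library overlapped (log2 fold -0.45 ± 0.05, limma adjusted p = 1.96e-06). In the AS1949490 arm the DMSO libraries held 1456 and 1369 CPM and the treated ones 1452 and 1560 CPM. These overlapped and did not pass the test (0.09 ± 0.06, adjusted p = 0.208). As a ratio of CPM per kilobase of exon, HSPA1A and HSPA1B together stood at 0.664, 0.631 and 0.61 of HSPA8 with DMSO. With K149 the ratio was 1.27, 1.44 and 1.36. The length used takes all annotated exons, 4.85 kb for HSPA8 against 2.48 and 2.52 kb. In CPM, HSPA8 stayed above the sum of both genes, which was 833 to 955 CPM with K149. Which was the more abundant thus depends on the length used, and on how reads shared by HSPA1A and HSPA1B were counted. The same ratio was 0.537 and 0.561 with DMSO and 0.641 and 0.574 with AS1949490, both above both controls.

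The remaining HSP70 genes were less abundant. HSPA14, a ribosome-associated HSP70, measured 44.1, 46.2 and 47.7 CPM with DMSO and 24.5, 25.5 and 23.7 CPM with K149. With AS1949490 it went from 60 and 57.3 CPM to 40.4 and 42.7 CPM. Both were falls without overlap, by 0.88 (limma adjusted p = 1.44e-08) and by 0.49 (adjusted p = 0.000101) on the log2 scale. DNAJC2, the J-domain partner of HSPA14 at the ribosome, also fell, from a mean of 107 to 62 CPM with K149 (adjusted p = 6.12e-07) and from 117 to 88.8 CPM with AS1949490 (adjusted p = 0.00266). HSPA2, a testis-enriched HSP70, fell from 15, 15.1 and 15.9 CPM to 8.2, 8.35 and 7.39 CPM with K149 (log2 fold -0.86 ± 0.08, adjusted p = 5.1e-07). With AS1949490 it was 4.9 and 4.7 CPM against 5.15 in both controls and did not pass the test (adjusted p = 0.497).

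HSPA13, an HSP70-like protein of microsomes, rose with both inhibitors. Its level was 40.8, 37.2 and 41.9 CPM with DMSO and 72.7, 62.5 and 76.9 CPM with K149 (log2 fold 0.80 ± 0.14, SE, limma adjusted p = 0.000136). With AS1949490 it was 77.4 and 73.4 CPM, against 28.4 and 47.3 CPM with DMSO (1.02 ± 0.17, adjusted p = 0.000225). No treated library overlapped its controls, but the 2 DMSO libraries of that arm lay far apart, and the fold was 0.66 without DMSO replicate 1, 1.38 without DMSO replicate 2 and 0.59 with edgeR on 8 libraries.

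HSP110 proteins, which release the nucleotide from HSP70, were divided. HSPA4L measured 59.1 and 74.4 CPM with DMSO and 104 and 98.8 CPM with AS1949490, a rise without overlap (log2 fold 0.61 ± 0.09, limma adjusted p = 0.000153; 0.37 with edgeR on 8 libraries, adjusted p = 0.00191). With K149 it ranged from 75.1 to 85.1 CPM against 75.5 to 77.8 CPM, overlapping and not called (adjusted p = 0.317). HSPA4 and HSPH1 fell with K149, by 15.4% and 11.2% of the control mean, and passed no test with AS1949490.

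The J-domain genes held the largest rise of the set. DNAJB4 (ENSG00000162616, chr1:77979175-78017964, plus strand), a cytosolic class B J-domain protein, measured 34, 30.9 and 30.4 CPM with DMSO and 82, 79 and 78.6 CPM with K149. In the other arm it was 15.2 and 19.6 CPM with DMSO and 47.7 and 47.9 CPM with AS1949490. Treated and control libraries were far apart in both arms, with log2 folds of 1.30 ± 0.08 (limma adjusted p = 6.46e-09) and 1.42 ± 0.10 (adjusted p = 2.92e-07). DNAJB1, the stress-inducible partner of HSPA1A, rose less, from a mean of 219 to 255 CPM with K149 and from 160 to 187 CPM with AS1949490, each by 0.22 on the log2 scale. Its rise with AS1949490 (adjusted p = 0.00908) was not called after TMM (adjusted p = 0.0984) or upper-quartile rescaling (adjusted p = 0.0538). That fold was 0.17 without AS1949490 replicate 2, and 0.18 with edgeR and 0.16 with DESeq2 on 8 libraries. The DNAJB1 rise with K149 had an adjusted p of 0.00159. DNAJB6, which suppresses aggregation, rose with K149 from 110 to 112 CPM to 121 to 127 CPM (adjusted p = 0.00456) and was 111 and 112 CPM against 124 and 117 CPM in the AS1949490 arm (adjusted p = 0.123). The latter was called lower after TMM (-0.19, adjusted p = 0.012) and upper-quartile rescaling (-0.17, adjusted p = 0.0316). DNAJA1 fell with K149 by 16.4% and was not called with AS1949490. DNAJA2 and BAG3, an exchange factor that is a classical HSF1 target, passed neither test. BAG3 measured 70.1 to 82.4 CPM with K149 against 72.3 to 75.5 CPM, and 110 CPM in both AS1949490 libraries against 101 and 105 CPM.

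Small heat shock proteins hold unfolded clients without using ATP, and HSPB8 and HSPB1 moved apart. HSPB8 (ENSG00000152137, chr12:119178642-119221131, plus strand), which acts with BAG3 in selective autophagy, measured 62.3, 62.7 and 67.9 CPM with DMSO and 133, 147 and 138 CPM with K149. With AS1949490 it went from 93.2 and 85.6 CPM to 114 and 122 CPM. All treated libraries exceeded their controls (log2 folds 1.10 ± 0.06 and 0.40 ± 0.07, SE, limma adjusted p = 1.46e-09 and 0.000539). HSPB1, or HSP27, fell from 583, 612 and 614 CPM to 323, 401 and 353 CPM with K149 and from 547 and 532 CPM to 399 and 377 CPM with AS1949490. The groups of each arm did not overlap (-0.75 ± 0.07 and -0.48 ± 0.08, adjusted p = 2.48e-07 and 0.000303). HSPB11 fell with AS1949490 from 36.6 and 29.2 CPM to 21.6 and 22.8 CPM (adjusted p = 0.00113). With K149 it was 33.4, 38.4 and 31.6 CPM against 38.9, 41.8 and 42.7 CPM, called (adjusted p = 0.0219) but lost without any 1 of 4 libraries (DMSO replicate 2 or 3, K149 replicate 1 or 3; adjusted p 0.0652 to 0.0964).

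**Figure D2:**
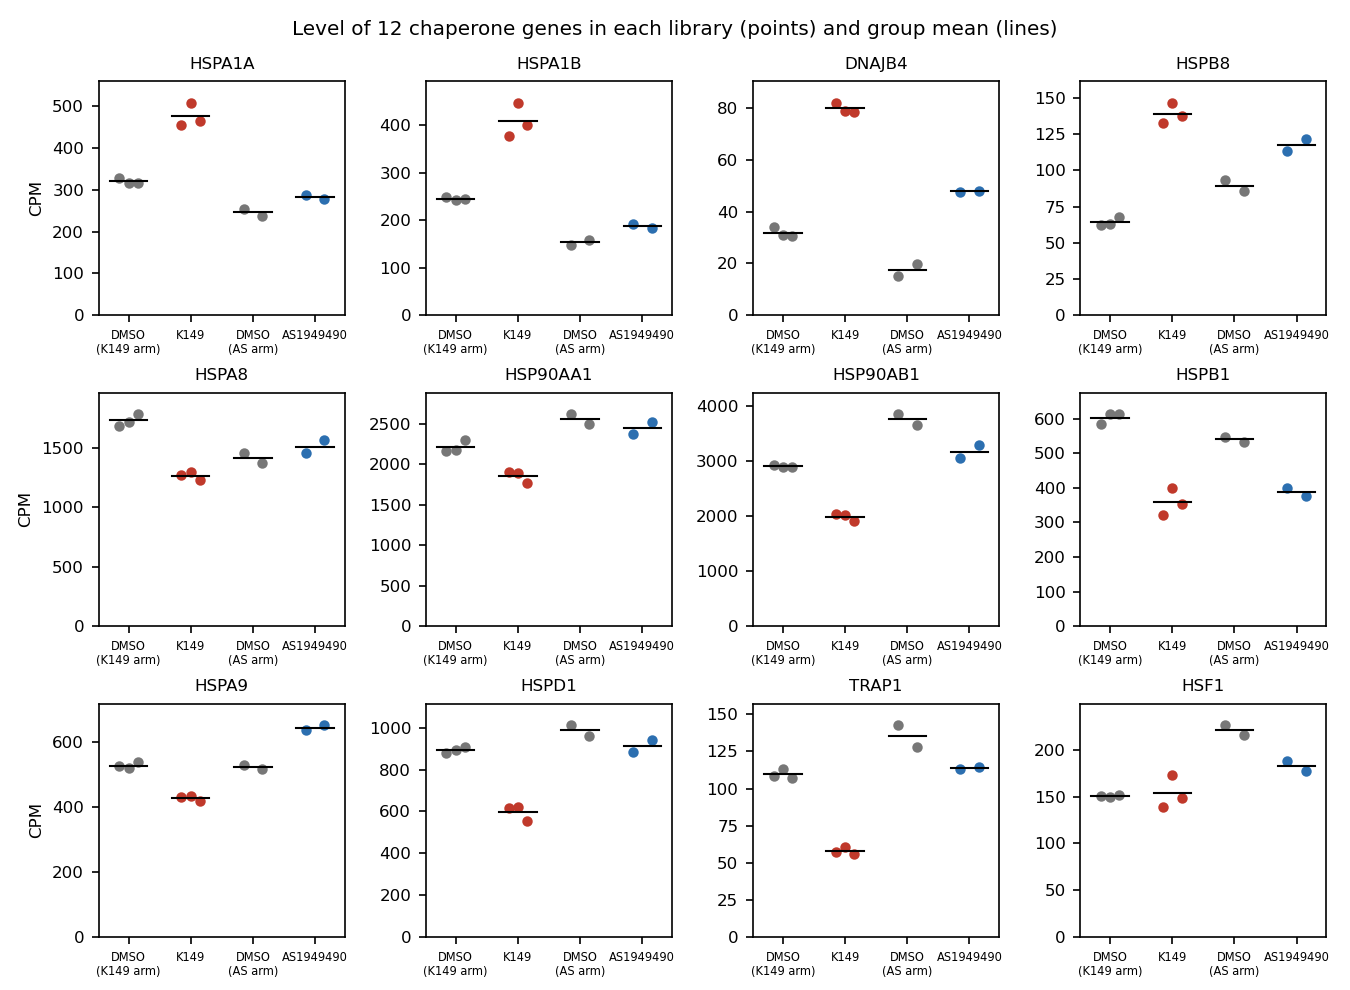
CPM of 12 chaperone genes in each library (points; grey DMSO, red K149, blue AS1949490) with group means as lines and the vertical axis from 0. The HSPA1A, HSPA1B, DNAJB4 and HSPB8 points rise in both arms, HSP90AB1, HSPB1 and TRAP1 fall in both, and HSPA9 moves from 521 to 538 CPM down to 419 to 433 CPM with K149 and from 517 and 530 CPM up to 637 and 654 CPM with AS1949490.

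The HSP90 genes were the most abundant of the set and fell with K149. HSP90AB1 (ENSG00000096384, chr6:44246166-44253888, plus strand), the constitutive form, measured 2935, 2886 and 2890 CPM with DMSO and 2034, 2022 and 1909 CPM with K149. With AS1949490 it was 3050 and 3282 CPM against 3858 and 3659 CPM. Neither arm overlapped, and HSP90AB1 fell by 0.55 ± 0.05 (limma adjusted p = 2.92e-07) and 0.25 ± 0.06 (adjusted p = 0.00343) on the log2 scale. HSP90AA1, the inducible form, fell less with K149, from 2164, 2172 and 2296 CPM to 1911, 1892 and 1774 CPM (log2 fold -0.25 ± 0.05, adjusted p = 0.000541). With AS1949490 its libraries held 2375 and 2518 CPM against 2626 and 2505 CPM, overlapping (adjusted p = 0.361). The ratio of HSP90AB1 to HSP90AA1 in CPM per kilobase of all annotated exons was 2.22 to 2.39 with DMSO and 1.88 to 1.90 with K149. In the other arm this ratio was 2.57 and 2.59 with DMSO and 2.26 and 2.30 with AS1949490. Its level depends on the length used, but its relative change within an arm does not.

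Most HSP90 co-chaperones fell. With K149, 5 of the 6 fell and with AS1949490 also 5 of 6, where 30.6% and 19.5% of all genes tested were called lower. CHORDC1, an HSP90-binding co-chaperone, measured 129, 114 and 120 CPM with DMSO and 75.2, 69.7 and 74.5 CPM with K149 (log2 fold -0.72 ± 0.07, limma adjusted p = 3.96e-07). With AS1949490 it was 97.8 and 96.2 CPM against 109 and 128 CPM, with no overlap (-0.28 ± 0.08, adjusted p = 0.0098), a call lost without DMSO replicate 2 (-0.17, adjusted p = 0.0914) or AS1949490 replicate 2 (adjusted p = 0.0558), and larger with edgeR on 8 libraries (-0.49). AHSA1, the activator of the HSP90 ATPase, fell from 274, 275 and 280 CPM to 170, 185 and 168 CPM with K149 and from 404 and 351 CPM to 292 and 306 CPM with AS1949490. Both were apart from their controls (adjusted p = 2.35e-07 and 0.00159). STIP1, which joins HSP70 to HSP90, fell from 400, 404 and 409 CPM to 274, 286 and 273 CPM and from 515 and 471 CPM to 397 and 420 CPM, again without overlap (adjusted p = 2.59e-07 and 0.00168). The immunophilin FKBP4 fell with both, by 25.9% and 18.4% of the control mean. PTGES3, or p23, fell by 23.7% with K149 and was not called with AS1949490, except after TMM rescaling (-0.17, adjusted p = 0.0285). CDC37, the kinase adaptor, passed only with AS1949490 (adjusted p = 0.0225), and that call was lost without any 1 of DMSO replicate 1 and AS1949490 replicates 1 and 2 (adjusted p 0.0789 to 0.1).

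All 8 CCT subunit genes fell with both inhibitors. Their summed level was 3409, 3461 and 3573 CPM with DMSO and 2325, 2439 and 2229 CPM with K149, and 4505 and 4125 CPM with DMSO and 3359 and 3588 CPM with AS1949490. In each of the 8 genes every treated library was below every control of its arm. The median log2 fold over the subunits was -0.55 with K149 and -0.29 with AS1949490, and the subunits stayed within a narrow band, from -0.83 to -0.47 and from -0.44 to -0.23. The percentages of all genes called lower, 30.6% and 19.5%, are the background for these counts, and the subunits of 1 complex are not independent of each other.

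CCT5 (ENSG00000150753, chr5:10249921-10266412, plus strand) fell most with K149, from 568, 588 and 603 CPM to 336, 341 and 314 CPM (log2 fold -0.83 ± 0.05, limma adjusted p = 7.17e-09). With AS1949490 it went from 762 and 693 CPM to 575 and 601 CPM (-0.30 ± 0.06, adjusted p = 0.00131). CCT5 is uncertain because 30.1% of its exon bases lie under an antisense gene, AC012640.4, which fell from a mean of 145 to 76 CPM with K149. CCT7 fell least with K149, from 418, 422 and 432 CPM to 309, 323 and 288 CPM (-0.47 ± 0.06, adjusted p = 5.68e-06). With AS1949490 CCT7 was 447 and 475 CPM against 652 and 582 CPM (-0.42 ± 0.07, adjusted p = 0.000239). Between these lay the other subunits with K149. TCP1, the alpha subunit, was 225, 236 and 221 CPM against 338, 334 and 346 CPM with DMSO (-0.58 ± 0.05), and CCT3 was 327, 345 and 311 CPM against 491, 493 and 508 CPM (-0.60 ± 0.05). CCT4 was 283, 296 and 277 CPM against 403, 420 and 427 CPM (-0.54 ± 0.05), and CCT6A was 306, 319 and 294 CPM against 425, 438 and 447 CPM (-0.51 ± 0.05). CCT8 was 207, 227 and 201 CPM against 302, 309 and 324 CPM (-0.55 ± 0.06), and CCT2 was 333, 351 and 323 CPM against 463, 458 and 486 CPM (-0.48 ± 0.06). All 6 were called, with limma adjusted p from 1.86e-07 (CCT4) to 3.93e-06 (CCT2), and every pair of groups was apart. TCP1 fell most with AS1949490, from 445 and 401 CPM to 304 and 319 CPM (-0.44 ± 0.06, adjusted p = 7e-05), and CCT3 fell least, from 623 and 572 CPM to 489 and 526 CPM (-0.23 ± 0.06, adjusted p = 0.00796). Among the CCT calls with AS1949490, those of CCT2, CCT3, CCT6A and CCT8 were lost without AS1949490 replicate 1 (adjusted p 0.0503 to 0.0926), and those of CCT3 and CCT8 also without DMSO replicate 1 (0.062 and 0.0567).

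**Figure D3:**
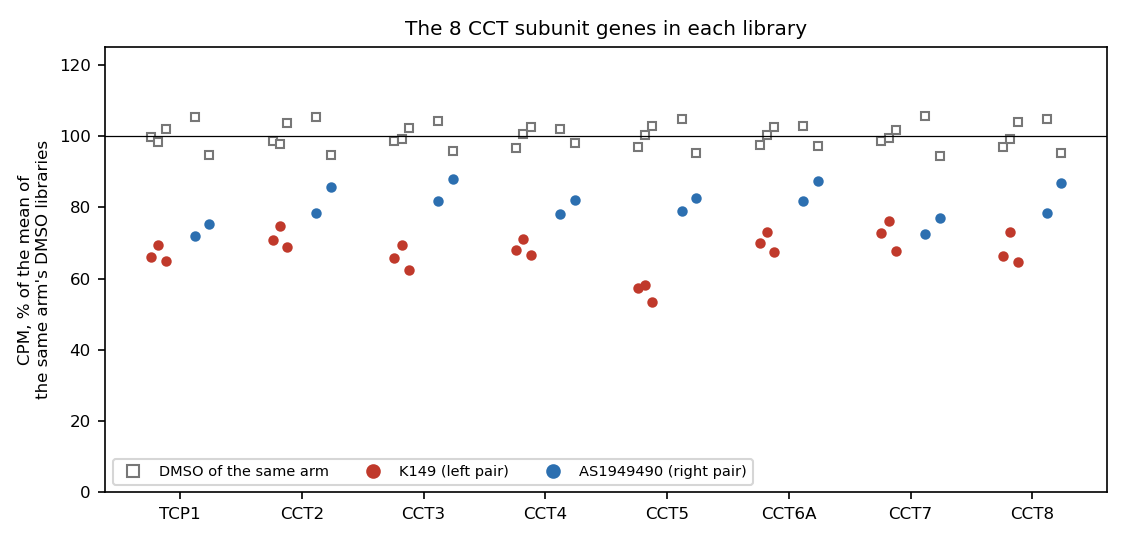
CPM of each CCT subunit gene in every library as a percentage of the mean of the DMSO libraries of the same arm, with DMSO as open squares, K149 as red and AS1949490 as blue circles. The treated libraries of both arms lie below all controls of their arm for all 8 genes, and CCT5 with K149 lies lowest, with a mean 43.7% below its control.

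Mitochondrial chaperones fell with K149 and were divided with AS1949490. HSPD1, the HSP60 of the mitochondrial matrix, measured 880, 892 and 907 CPM with DMSO and 616, 622 and 556 CPM with K149 (log2 fold -0.58 ± 0.05, limma adjusted p = 3.2e-07). In the AS1949490 arm its values were 884 and 942 CPM against 1014 and 961 CPM, both below, and did not pass the test (-0.11 ± 0.06, adjusted p = 0.15). It was called lower after TMM (-0.20, adjusted p = 0.0211) and upper-quartile rescaling, and with edgeR and DESeq2 on 8 libraries (adjusted p 0.036 to 0.0482 over these 3). HSPE1, the HSP10 lid of HSPD1, lies head to head with it and fell from 185, 182 and 193 CPM to 106, 118 and 102 CPM with K149. With AS1949490 it fell from 231 and 193 CPM to 144 and 153 CPM. Neither arm overlapped (adjusted p = 3.38e-07 and 0.000304), and 23.9% of the HSPE1 exon bases lie in other genes.

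TRAP1, the mitochondrial HSP90, had the largest fall with K149, from 108, 113 and 107 CPM to 57.2, 60.4 and 55.8 CPM (log2 fold -0.91 ± 0.05, limma adjusted p = 5.15e-09). With AS1949490 it was 113 and 114 CPM against 143 and 128 CPM, again without overlap (-0.25 ± 0.07, adjusted p = 0.00781), and that call was lost without DMSO replicate 1 or AS1949490 replicate 1 (adjusted p = 0.073 and 0.0502). DNASE1 overlaps 29.3% of its exon bases and went from a mean of 70 to 50.2 CPM with K149, so TRAP1 is uncertain. HSPA9 (ENSG00000113013, chr5:138553756-138575724, minus strand), or mortalin, the mitochondrial HSP70, fell from 526, 521 and 538 CPM to 432, 433 and 419 CPM with K149. With AS1949490 it rose from 530 and 517 CPM to 637 and 654 CPM. The groups did not overlap in either arm (-0.30 ± 0.04 and 0.30 ± 0.05, adjusted p = 1.89e-05 and 0.000274).

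The effects of the inhibitors were also set against each other, as the K149 fold minus the AS1949490 fold. The doses were 2 and 20 µM, so this is no comparison at a matched dose, and arm and library set cannot be told apart. Of the 41 genes, 5 had a higher fold with K149 and 21 a lower one at limma's adjusted p under 0.05, where 15.1% and 25.3% of all genes tested did. The higher ones were HSPB8 (difference 0.71 ± 0.09, SE, adjusted p = 4.92e-05), HSPA1B (0.44 ± 0.09), HSPA1A (0.37 ± 0.08), HSF1 (0.30 ± 0.10) and DNAJB6 (0.28 ± 0.07). Among the lower ones were HSPA2 and HSPA1L (both -0.78), TRAP1 (-0.67), HSPA9 (-0.60), HSPA8 (-0.54), CCT5 and HSPA4L (both -0.52) and HSPD1 (-0.47). HSPA8, HSPA14, HSPA2 and HSPA1L and 5 of the 8 CCT genes were in this class. The count of lower genes was 13 without AS1949490 replicate 2, and the differences of HSF1, HSPA4, HSPH1, HSPB1, CCT4 and CCT8 were each lost in several alternatives.

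Where no difference was called, the 95% intervals of the difference show what the data allow. For DNAJB4 the difference was -0.11 with an interval of -0.39 to 0.16, for HSPA13 -0.22 (-0.68 to 0.24), for DNAJB1 0.00 (-0.17 to 0.17) and for CCT7 -0.05 (-0.24 to 0.14). HSP90AA1 (-0.18, interval -0.35 to -0.01) and HSPE1 (-0.27, interval -0.51 to -0.03) were not called after adjustment (adjusted p = 0.0821 and 0.0662). An uncalled difference does not show that the compounds act alike on a gene.

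**Figure D4:**
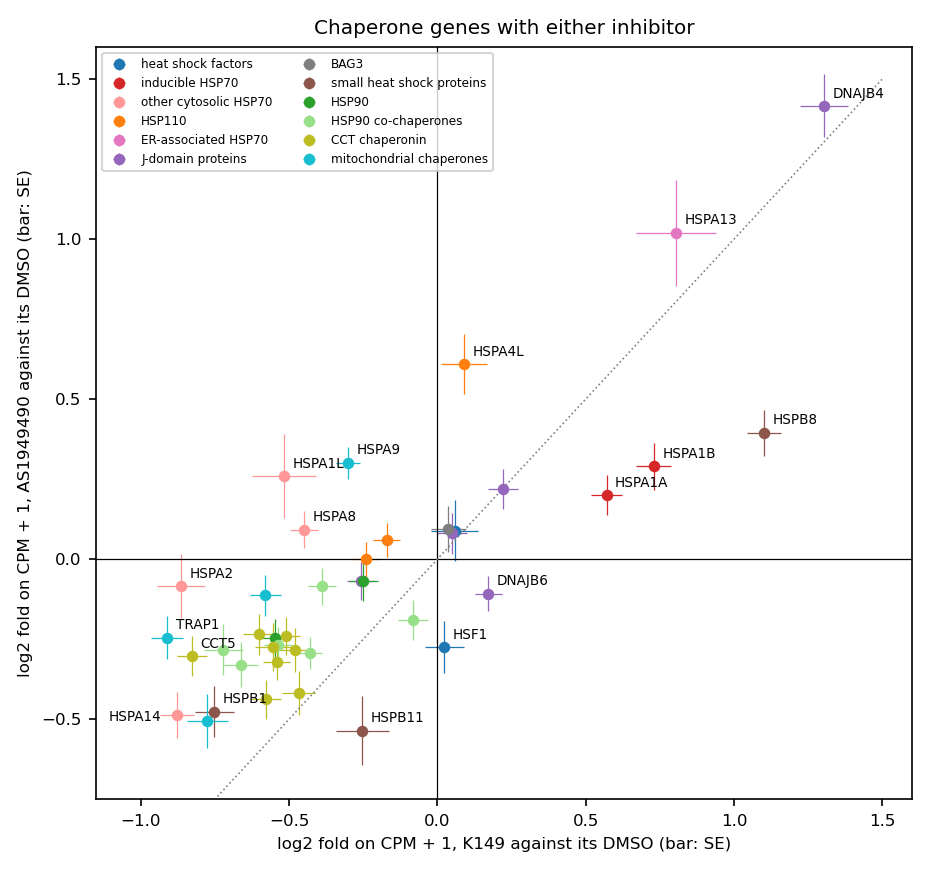
Log2 fold on CPM + 1 of each tested chaperone gene with K149 (horizontal) against AS1949490 (vertical), coloured by role, with standard errors as bars and the dotted line marking equal folds. HSPA9 at -0.30 and 0.30 is the gene called in opposite directions, the inducible HSP70 genes and HSPB8 lie below the line, and DNAJB4 lies near it.

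Chaperone levels also differed between the DMSO groups, which carry the same label of 0.1% DMSO. Of the 41 genes, 11 were higher and 20 lower in the K149 arm's DMSO than in that of the AS1949490 arm, against 37.1% and 29.1% of all genes tested. All 8 CCT genes (median -0.29), both HSP90 genes, HSF1 (-0.55 ± 0.07) and CDC37 (-0.56) were lower in the K149 arm. HSPA2 (1.41 ± 0.09), HSPA1L (1.11 ± 0.12), DNAJB4 (0.84), HSPA1B (0.67) and HSPA1A (0.38) were higher there. Of the 24 genes called in the same direction with both inhibitors, 18 had the K149 arm's controls already on the side to which both moved the gene, among them the 8 CCT genes, HSP90AB1, HSPA1A, HSPA1B and DNAJB4. The controls differed the other way for HSPB8 (-0.47, adjusted p = 2.84e-05), which rose with both, and HSPB11 (0.32, adjusted p = 0.011), which fell with both, and were not called different for the remaining 4. The matching share over all genes called with both inhibitors was not counted, so no trait of the chaperone genes is read from these counts. The fibroblast marker list, whose COL1A2 and COL3A1 were under 1 CPM, summed to 230 to 242 CPM in the K149 arm's controls and 38.6 to 43.6 CPM in the other controls, and its part in these differences was not tested. The DMSO libraries of each arm also enter that arm's inhibitor fold and the difference of effects, so the results are not independent of each other.

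Levels per length give an order of the family that depends on the length used, here all annotated exons. HSP90AA1 had 5.25 kb of exon against 3510 bases in its longest coding transcript, and HSP90AB1 2.98 kb against 2674 bases. In the K149 arm's DMSO, HSP90AB1 led with 974 CPM per kilobase of exon, followed by HSP90AA1 (421), HSPB1 (369), HSPA8 (356) and HSPD1 (210). HSPA1A stood at 129 and HSPA1B at 97.2 CPM per kilobase. With K149 HSP90AB1 still led with 667 CPM per kilobase, followed by HSP90AA1 (354), HSPA8 (261), HSPB1 (220) and HSPA1A (192). Spread among replicates was small. The coefficient of variation had a median of 2.88% over 40 chaperone genes in the K149 arm's DMSO, 4.34% with K149, 4.24% in the other DMSO libraries and 3.82% with AS1949490, and its maximum was 35.3%, for HSPA13 in the AS1949490 arm's DMSO.

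Of the 7 genes with the 13-letter heat shock element in the sequences above, HSPA8, HSP90AA1, HSP90AB1, CHORDC1, DNAJA1 and HSPD1 fell with K149 and DNAJB6 rose. Of all 41 tested genes of the set, 68.3% fell with K149, as did 30.6% of all genes tested. HSPA1A and HSPA1B, whose windows held only the 8-letter form, rose with K149. Other genes of the set with only that form went both ways. HSPB8, DNAJB1 and DNAJB4 rose, HSPA1L, HSPB1, STIP1, TCP1, CCT2, CCT4 and HSPA9 fell, and HSPA4L was not called. The HSPA1L match is the same site as that of HSPA1A, because their windows overlap and its letters read alike on both strands. With AS1949490, HSP90AB1 and CHORDC1 fell and the other 5 of the 7 were not called on the deposited scale. HSPD1 and DNAJB6 were called lower after rescaling, as given above. Of the 41 genes, 48.8% fell with AS1949490, against 19.5% of all genes tested. Binding of a factor was not measured.

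Genes working beside the 42 were counted from lists of the same pathways. Of all genes tested, 35.8% were called higher and 30.6% lower with K149, and 32.1% higher and 19.5% lower with AS1949490, and each list's counts are read against these shares. Of 7 other heat-inducible genes and HSF regulators, 3 rose (42.9%) and 2 fell (28.6%) with K149, and 0 rose and 4 fell (57.1%) with AS1949490. HSPA6, an HSP70 gene that is strictly heat-induced, stayed low, at 0.95 CPM with DMSO and 2.02 CPM with K149 (log2 fold 0.61 ± 0.16, limma adjusted p = 0.0037). That fold was 0.23 with a pseudocount of 5, and DESeq2 on 8 libraries did not call it (adjusted p = 0.103). SERPINH1, the collagen chaperone HSP47, fell with both (-0.46 and -0.43). None of the 6 further small heat shock protein genes passed the filter on low values, the highest single value being 0.75 CPM. Of 14 other cytosolic or nuclear J-domain genes, 4 rose (28.6%) and 6 fell (42.9%) with K149 and 4 rose (28.6%) and 5 fell (35.7%) with AS1949490, so the share that rose did not exceed that of all genes in either arm. DNAJC6, the clathrin-uncoating auxilin, rose with both (2.14 ± 0.10 and 1.16 ± 0.13), and DNAJC9, a histone chaperone, fell with both (-1.54 ± 0.07 and -0.51 ± 0.08). DNAJC9 is uncertain because 29.1% of its exon bases lie in other genes, mainly FAM149B1, which went from a mean of 72.4 to 46.9 CPM with K149.

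Of 13 cofactors of HSP90 beyond the 6, 12 were tested. With K149, 8 of these fell (66.7%, against 30.6% of all genes tested) and 1 rose, and with AS1949490 6 fell (50%, against 19.5%) and 1 rose. NUDC fell (-0.70 and -0.46), as did PPP5C with K149 (-0.58) and PPID with AS1949490 (-0.44), while the myosin chaperone UNC45A rose with both (0.49 and 0.19, the latter lost in several alternatives, TMM rescaling giving 0.10, adjusted p = 0.16). Of 10 other HSP70 cofactors, 1 rose and 5 fell (50%) with K149 and 2 rose and 2 fell (20%) with AS1949490, the last near the share of all genes. BAG6 fell with AS1949490 (-0.23 ± 0.05) and was called higher with K149 (0.13 ± 0.04), but the latter call was lost after TMM rescaling (adjusted p = 0.0838), with edgeR (0.1) and DESeq2 (0.119) on 8 libraries, with the replicate block (0.0609) and without DMSO replicate 2 or 3 (0.0651 and 0.0622).

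Around CCT, prefoldin subunits and CCT cofactors numbered 12, of which 6 fell with K149 (50%, against 30.6% of all genes tested) and 5 with AS1949490 (41.7%, against 19.5%), and 0 rose with either. The 12 actin and tubulin genes, the main CCT clients, were all called with K149, 5 higher and 7 lower, and 6 were lower with AS1949490. TUBA1B fell from a mean of 1509 to 594 CPM with K149 and from 1847 to 1287 CPM with AS1949490, while TUBB3 rose with K149 from 35 to 127 CPM. Both share exon bases with other genes (36.6% and 35.8%) and are uncertain. In mitochondria, 8 of 13 cofactors and proteases fell with K149 (61.5%) and 0 rose. With AS1949490, 3 fell (23.1%, near the 19.5% of all genes) and 2 rose, the latter being CLPX (0.61 ± 0.08) and LONP1 (0.32 ± 0.07), an unfoldase and a protease of the matrix.

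The proteasome and the ER chaperones were counted in the same way. Of 31 proteasome genes, 24 fell (77.4%, against 30.6% of all genes tested) and 0 rose with K149, and 14 fell (45.2%, against 19.5%) and 0 rose with AS1949490 (medians -0.20 and -0.19). The ER chaperone list of 16 genes also holds SEL1L and HERPUD1, which act in ER-associated degradation. Of the 16, 7 rose (43.8%) and 6 fell (37.5%) with K149, near the 35.8% and 30.6% of all genes. With AS1949490, 5 rose (31.2%) and 10 fell (62.5%), where 32.1% and 19.5% of all genes did. SEL1L, a scaffold of ER-associated degradation, rose with both (1.00 ± 0.09 and 0.89 ± 0.11), HERPUD1 rose with K149 (1.00 ± 0.06) and MANF fell with it (-0.95 ± 0.08). The differences between these lists and the 42 genes were not tested.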

How the data were processed

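Per the labels' protocols, RNA was purified on columns with DNase digestion, checked on a Bioanalyzer and made into libraries with the Ovation Solo RNA-Seq System. The submitters' processing notes name STAR 2.5.3a, HTSeq and hg38. For annotation and strand setting, not given in the sources used here, no assumption was made. A single table, deposited by the authors, holds CPM for 58302 Ensembl genes in 10 libraries. All low values lay on steps of about 0.05 CPM (100% within 0.05 of a step), from which whole reads were recovered for 8 libraries (all but replicate 3 of K149 and replicate 1 of the DMSO libraries in the AS1949490 arm), a scaling inferred from the values.

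The test was limma 3.58.1 (R 4.3.3, trend) on log2(CPM + 1), a scale that understates changes of low genes, with 4 group means in 1 fit of 10 libraries. The 17837 genes whose mean reached 1 CPM in any group were tested, with Benjamini-Hochberg adjustment over all of them and calls at adjusted p under 0.05. The limma fit was tested on simulated data with known folds. Alternatives were other pseudocounts, filters, TMM and upper-quartile scaling, only the groups compared, replicate blocks, each library left out, and edgeR 4.0.16 and DESeq2 1.42.0 on the recovered reads.

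Groups came from the titles, except DMSO replicate 3 of the K149 arm, placed by its library name. No replicate pair fell within sampling noise. Values per library are given for members called with an absolute log2 fold of at least 0.5 and a mean of at least 5 CPM, for the CCT genes, and for HSF1, HSPA1A, HSPA1B, HSPA8, HSP90AA1, HSP90AB1 and HSPD1. HSPA1L, HSPA9, DNAJB6, BAG3 and, with AS1949490, DNAJC2 were added after their values were seen. Of each other list at most 2 called genes per direction are named, those with the largest fold. Members and lists were chosen with earlier results of these data known. Positions and exon lengths are from GENCODE 29 (GRCh38), promoters from RefSeq (GRCh38.p14). Genes sharing at least 25% of exon bases with another are called uncertain.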

Additional observations from a re-analysis of the deposited data

Results flagged for a closer look

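HSPA9, HSPA1L, HSPH1 and DNAJB6 had every treated library below the controls with one inhibitor and above them with the other, and a called difference between the effects (K149 minus AS1949490, limma adjusted over all genes tested). For HSPA9 the difference was -0.60 (adjusted p = 7.16e-06), and HSPA9 was called in both arms. For HSPA1L it was -0.78 (adjusted p = 0.00273), resting on levels under 6 CPM, and DESeq2 on 8 libraries did not call it (-0.88, adjusted p = 0.167). For HSPH1 it was -0.23 (adjusted p = 0.0178), a call lost on TMM rescaling (adjusted p = 0.0593). For DNAJB6 it was 0.28 (adjusted p = 0.00757). Doses differed between the arms.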

How the results depend on the processing

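Of the 35 chaperone genes called with K149, 34 kept their call and direction in all 20 alternatives, the exception being HSPB11. Of the 28 called with AS1949490, 17 did so in 21 alternatives, and of the 26 called differences 14 did so in 20. With K149, each alternative gave 7 genes higher and 27 to 29 lower. With AS1949490, the count of genes higher was 5 with edgeR and 5 with DESeq2 on the 8 libraries with recovered reads, where the DMSO group holds 1 library that is assumed to vary like the other groups. Leaving out 1 library at a time gave 7 to 8 higher and 14 to 20 lower with AS1949490, and 4 to 6 higher and 13 to 24 lower for the difference of effects. DESeq2 gave 13 lower for the difference. Between the DMSO groups the counts were 9 to 13 higher and 17 to 22 lower with 1 library left out.

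With the replicate number of the titles as a block, K149 gave 7 higher and 28 lower, AS1949490 8 and 19, and the difference 5 and 17. In the K149 arm same-numbered libraries correlated at 0.10, 0.05 and -0.01, so the numbers showed no pairing there. In the other arm the value was -0.24. With 2 libraries a group the crossed pairs must give the same size with the other sign, so pairing cannot be judged from it. Library names of that arm also carry other replicate numbers than the titles. A crossed pairing of the AS1949490 arm, chosen after seeing the data, gave 8 and 20, and 5 and 22 for the difference. The block could not be fitted between the DMSO groups, which share no pairs.

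Signs turned only in values that were uncalled in the main result and in the alternative, except BAG5. TMM turned HSF1 (-0.014) and BAG3 (-0.00026) with K149 and HSPH1 (-0.026) and DNAJA2 (-0.0058) with AS1949490. With AS1949490, edgeR turned HSPH1 (-0.047) and BAG3 (-0.017), and DESeq2 turned HSPH1 (-0.063), BAG3 (-0.033), HSF2 (-0.015) and the cofactor BAG5 (-0.014), which was called higher in the main result (0.19). The differences of HSPA13 and DNAJB4 turned with edgeR (0.13 and 0.10) and DESeq2 (0.15 and 0.13). With 1 library left out, the K149 fold of HSF1 ran from -0.065 to 0.090, that of HSF2 from -0.00040 to 0.095 and that of BAG3 from -0.021 to 0.093, and the AS1949490 fold of HSPA4 from -0.037 to 0.034. The differences then ran from -0.57 to 0.14 for HSPA13, from -0.29 to 0.063 for DNAJB4 and from -0.13 to 0.031 for CCT7. The cause was not tested. Values under 1 CPM rest on few reads, and 2 libraries a group limit what AS1949490 can show.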
